A study of Mus musculus with 12 samples.

Results

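Xbp1 and 9 genes of the endoplasmic reticulum (ER) folding machinery were followed in mouse liver across genotype and diet. They are Xbp1, Hspa5, Hsp90b1, Dnajb9, Pdia4, Pdia6, Sdf2l1, Herpud1, Creld2 and Manf. The genes were chosen by symbol from a list of ER chaperones and XBP1 targets. Each symbol matched 1 of the 51912 identifiers of the count table, and all 10 were among the 18098 genes that passed the filter on low counts.

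Hepatocytes make most plasma proteins, and these fold in the ER before secretion. When unfolded proteins build up, the sensors IRE1, PERK and ATF6 start the unfolded protein response. IRE1 splices the Xbp1 mRNA, so that it encodes an active transcription factor. PERK slows translation and leads to ATF4, while ATF6 is released by cleavage in the Golgi. XBP1 and ATF6 then raise chaperones, disulfide isomerases and degradation factors. The libraries counted reads near the 3' ends of transcripts, so spliced and unspliced Xbp1 mRNA were counted together.

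The data came from whole livers of 12 mice in 4 groups of 3: Mlkl-/- mice on a high-fat diet (HFD), Mlkl-/- mice on normal chow (ND), wild-type mice on HFD and wild-type mice on ND. Mlkl encodes the pseudokinase that permeabilises the plasma membrane in necroptosis, and the labels give the null genotype with no restriction to a tissue. Diets began at 8 to 9 weeks of age, and HFD held 36% fat and drew 59% of its energy from lipid. The study's text gives 16 to 25 weeks of feeding and the labels give 25 weeks for every mouse. Livers were taken from fed animals chosen to have average organ weights, and the labels number the animals separately. The sources used here do not state strain or sex.

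Library totals ran from 19435391 to 32120426 counts. Mlkl had 16, 9 and 34 counts in Mlkl-/- HFD livers and 16, 15 and 20 in Mlkl-/- ND livers, against 134, 252 and 88 in wild-type HFD livers and 72, 76 and 92 in wild-type ND livers. Every Mlkl-/- library lay below every wild-type library. Hepatocyte markers such as Alb and Ttr were abundant in every library, with a summed level of 71600 to 133000 CPM (read counts scaled for library size) over 12 genes. The libraries were further divided by 2 features. At 8 loci, Lars2 and 7 genes of small or noncoding RNA, 6 libraries had 3483.5 to 9239.4 summed CPM and 6 had 377.8 to 656.5. The higher 8-locus level was that of replicates 1, 2 and 3 of Mlkl-/- HFD, replicate 1 of Mlkl-/- ND and replicates 2 and 3 of wild-type HFD. The sample titles carry 4 codes that the sources used here do not explain, 25 and 29 on HFD livers and 23 and 27 on ND livers, so no code occurs on both diets. Code 25 stood on replicates 1 and 2 of Mlkl-/- HFD and replicate 1 of wild-type HFD, and code 29 on the other 3 HFD livers. Code 23 stood on replicate 1 of Mlkl-/- ND and replicates 1 and 2 of wild-type ND, and code 27 on the other 3 ND livers. For fits with the code as a term they were pooled here into a lower level (25 with 23) and a higher level (29 with 27), a grouping that the labels do not give.

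Promoter sequences are shown for the 5 genes that hold an ER stress element, the site through which ATF6 and XBP1 act on chaperone genes. The RefSeq promoter table of GRCm38.p6 (mm10) was matched by symbol for 9 of the 10 genes, all but Manf, and each entry was a window of 300 bases ending 50 bases after the start. It was searched on both strands for the ER stress element (ERSE, which reads CCAAT, then 9 bases of any kind, then CCACG), its shorter form ERSE-II (ATTGG, then 1 base of any kind, then CCACG) and the core of the unfolded protein response element (TGACGTGG). ERSE and ERSE-II share the CCACG part and the CCAAT box, which ERSE-II holds on the opposite strand. ERSE was found in Hspa5, Hsp90b1, Pdia6 and Creld2, against 0.119% of all 32851 promoters of that length. ERSE-II was found in Herpud1, against 0.0365% of all promoters. The third motif was found in 0.676% of all promoters and in none of the 9, and Xbp1, Dnajb9, Pdia4 and Sdf2l1 held none of the 3 motifs in this window. A match is a description of letters, not a measured binding site.

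Capitals mark the fixed bases of the motifs below, all written 5' to 3' on the strand of the gene and cut where the annotated gene span begins. The Hspa5 element lay at chr2:34772025-34772043 (plus strand), 47 to 65 bases before the RefSeq start and inside the wider GENCODE gene span, so only the element is given. Hsp90b1 held 2 elements in chr10:86705510-86705694 (minus strand), 194 to 212 bases before the start and, on the opposite strand, 89 to 107 bases before it. The Pdia6 stretch is chr12:17266339-17266544 (plus strand), with the element 80 to 98 bases before the start. The Herpud1 stretch is chr8:94386179-94386428 (plus strand), with ERSE-II 42 to 52 bases before the start. The Creld2 stretch is chr15:88819396-88819645 (plus strand), with the element on the opposite strand, 108 to 126 bases before the start.
Hspa5 ERSE: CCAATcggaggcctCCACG
Hsp90b1: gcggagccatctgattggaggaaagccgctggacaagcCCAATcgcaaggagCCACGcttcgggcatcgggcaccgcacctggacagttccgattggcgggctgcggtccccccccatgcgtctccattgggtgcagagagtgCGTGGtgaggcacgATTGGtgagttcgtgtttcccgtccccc
Pdia6: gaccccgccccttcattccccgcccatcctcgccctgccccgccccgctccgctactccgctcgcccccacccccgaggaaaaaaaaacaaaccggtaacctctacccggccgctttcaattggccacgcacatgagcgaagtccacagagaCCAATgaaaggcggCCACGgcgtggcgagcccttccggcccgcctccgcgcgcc
Herpud1: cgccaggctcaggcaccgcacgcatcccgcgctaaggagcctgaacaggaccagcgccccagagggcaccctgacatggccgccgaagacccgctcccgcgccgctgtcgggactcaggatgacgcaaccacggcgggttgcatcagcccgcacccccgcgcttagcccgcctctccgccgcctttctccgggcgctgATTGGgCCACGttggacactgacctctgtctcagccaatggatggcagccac
Creld2: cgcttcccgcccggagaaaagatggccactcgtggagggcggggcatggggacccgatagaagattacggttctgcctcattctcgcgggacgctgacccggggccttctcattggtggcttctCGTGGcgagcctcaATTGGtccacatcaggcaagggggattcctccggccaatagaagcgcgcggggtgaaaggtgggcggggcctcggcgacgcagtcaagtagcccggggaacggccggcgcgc

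The diet comparisons ask how these genes stood on HFD against ND. Dnajb9 fell on HFD in Mlkl-/- livers, to 0.458 of its ND level, and was the only gene of the 10 called there. A gene was called where edgeR's Benjamini-Hochberg adjusted p over all 18098 genes was under 0.05. That rule called 0.359% of all tested genes between Mlkl-/- HFD and Mlkl-/- ND livers. Another 2 of the 10, Hspa5 and Manf, were lower in every Mlkl-/- HFD library than in any Mlkl-/- ND library without being called. Such a lack of overlap in the lower direction was found for 7.49% of all genes. The median log2 fold change of the 10 was -0.25, against -0.02 over all tested genes, and 7 of the 10 were below 0, as were 51.9% of all genes.

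In wild-type livers none of the 10 was called between HFD and ND, although 4.23% of all tested genes were. There 2 of the 10 had an unadjusted p under 0.05, as did 20.5% of all genes, and DESeq2 and limma-voom called 0 each. Xbp1, Hspa5, Dnajb9 and Herpud1 were each lower in all 3 wild-type HFD livers than in any wild-type ND liver, and this held for 15.2% of all genes. The median of the 10 was -0.29, against -0.01 over all genes, and 9 of the 10 were below 0, as were 51% of all genes. The 12 hepatocyte markers were all below 0 too (median -0.64, 4 called), and their part was not tested. Scaled by library size alone, the all-gene median of this comparison was 0.19 and 6 of the 10 were below 0. Averaged over the genotypes, Dnajb9 again was the only gene called among the 10, against 7.19% of all genes, and 8 of the 10 were below 0, as were 51.8% of all genes (median -0.33, against -0.01 over all genes). None of the 5 genes whose elements are printed above was called in any comparison of the main fit. Each comparison called between 0% and 7.19% of all genes, so this count says little about genes with the element. Hspa5 and Herpud1 were called in some alternative fits of the diet average, given below.

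The genotype comparisons ask how the genes stood in Mlkl-/- livers against wild-type livers on the same diet. All 10 fold changes were above 0 on HFD and 8 of the 10 on ND, and no gene of the 10 was called on either diet. The rule called 0.0276% of all genes on HFD and 0.00553% on ND. At an unadjusted p under 0.05 there were 3 of the 10 on HFD (15.5% of all genes) and 2 on ND (5.51% of all genes), and DESeq2 and limma-voom called 0 of the 10 on either diet. On HFD the median of the 10 was 0.43, against 0.01 over all genes, and 48.3% of all genes were below 0. On ND it was 0.49, against 0 over all genes, and 50% of all genes were below 0. The 12 hepatocyte markers were likewise all above 0 on HFD (median 0.47, none called), and their part in these values was not tested. On ND 5 of the 10 were higher in every Mlkl-/- than in any wild-type liver (4.93% of all genes), namely Hspa5, Dnajb9, Pdia6, Sdf2l1 and Manf, and on HFD Pdia6 was (10.6% of all genes). Averaged over diets the median was 0.42 with all 10 above 0, against 48.3% of all genes below 0. In that average 6 of the 10 had an unadjusted p under 0.05, as did 10.6% of all genes, none was called by edgeR, DESeq2 or limma-voom, and the rule called 0.0166% of all genes. The 4 comparisons share libraries, and in bulk tissue fewer cells of a type and less RNA per cell cannot be told apart.

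The direction of the genotype differences was also read within the levels of the libraries, with no test since each level left 1 or 2 libraries in most groups. On HFD, 9 of the 10 genes were higher in Mlkl-/- than in wild-type livers of code 29 (median 0.52) and 10 of the 10 in those of code 25 (0.50). On ND, 8 were higher in Mlkl-/- than in wild-type livers of code 27 (median 0.18) and 8 in those of code 23 (0.49). Within the higher 8-locus level 9 of the 10 were higher on HFD (median 0.25), and within the lower level 8 of the 10 on ND (0.51). Those counted as higher on HFD include Dnajb9 (0.01), Hspa5 (0.03), Hsp90b1 (0.09) and Pdia4 (0.11), all near 0. Manf was at -0.12 there, and the remaining genes ran from 0.39 to 0.57. Against 0.43 on HFD and 0.49 on ND in the fit of all libraries, the median was thus smaller within the higher 8-locus level on HFD and within code 27 on ND. With the 8-locus level as a term it was 0.38 on HFD and 0.36 on ND.

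**Figure D1:**
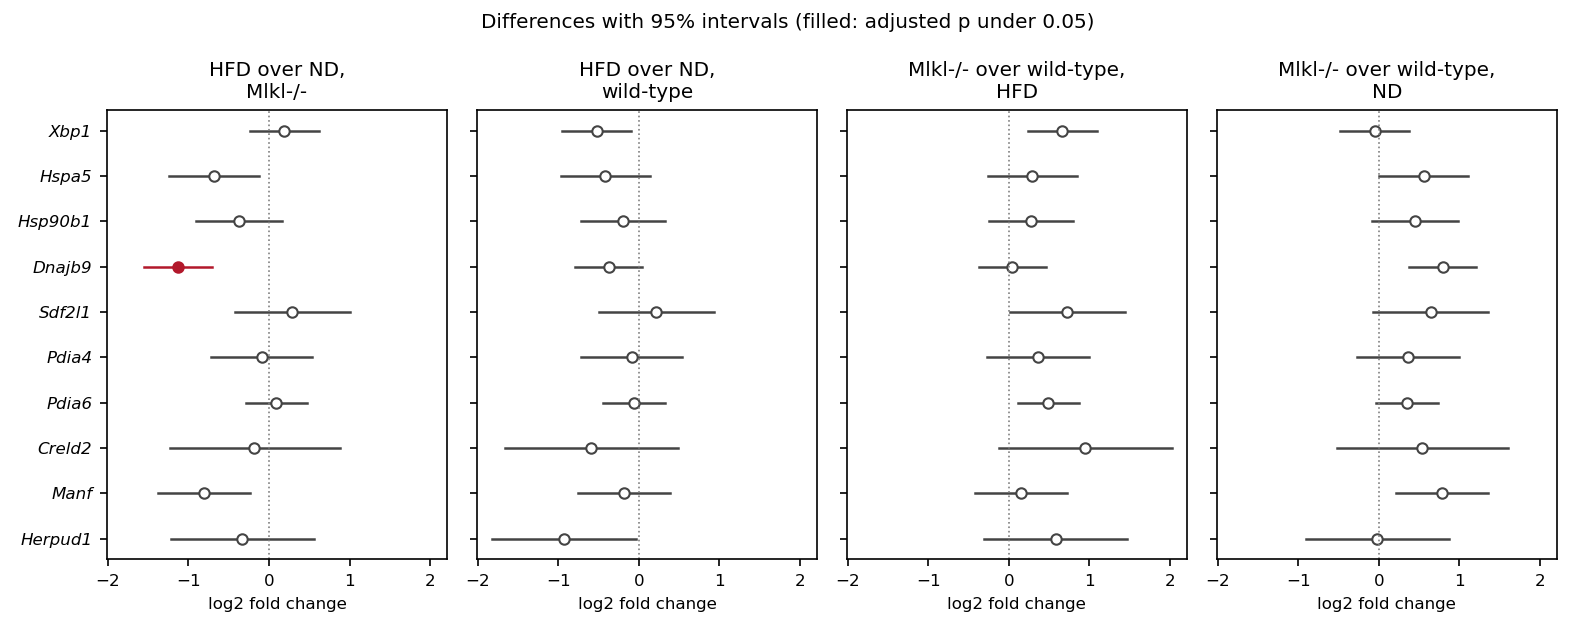
Log2 fold change of each gene (x axis) with its 95% interval (bars) in 4 comparisons, from left to right HFD over ND in Mlkl-/- livers, HFD over ND in wild-type livers, and Mlkl-/- over wild-type on HFD and on ND. The filled point, Dnajb9 in Mlkl-/- livers at -1.13, is the only one called, and all 10 points of the HFD genotype panel lie right of 0.

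Xbp1, on chromosome 11, encodes the transcription factor that IRE1 activates. It had 298, 151 and 187 CPM in Mlkl-/- HFD livers, 178, 181 and 198 in Mlkl-/- ND livers, 122, 126 and 154 in wild-type HFD livers and 205, 185 and 188 in wild-type ND livers. The wild-type HFD livers were the low group, all below the wild-type ND livers, and on HFD only the Mlkl-/- replicate at 151 CPM overlapped the wild-type range. Between HFD and ND the log2 fold change was 0.19 ± 0.20 (SE) in Mlkl-/- livers (adjusted p = 0.704) and -0.52 ± 0.20 in wild-type livers (adjusted p = 0.154). The difference between these diet effects was 0.71 ± 0.28, with an unadjusted p of 0.0227 and an adjusted p of 0.431. No gene of the 10 was called in that test, in which edgeR called 0% of all tested genes and DESeq2 58 genes. There 2 of the 10 had an unadjusted p under 0.05, as did 10.4% of all genes, and DESeq2 and limma-voom called 0 of the 10. The 14 tested markers of B and plasma cells, which express Xbp1 highly, were all above 0 in that test (median 1.28, none called), and their part in the Xbp1 value was not tested. Their mean log2 deviation was -0.66 in the Mlkl-/- HFD liver with the highest Xbp1 (298 CPM). It was 1.36 in the liver of that group with the lowest Xbp1 (151 CPM). Between genotypes Xbp1 stood at 0.66 ± 0.20 on HFD (adjusted p = 0.166) and at -0.05 ± 0.20 on ND (adjusted p = 0.993). With 1 library left out the HFD genotype difference ranged from 0.34 to 0.85 and the difference between diet effects from 0.39 to 0.91.

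Hspa5, on chromosome 2, encodes BiP, the Hsp70 chaperone of the ER lumen, which also holds the stress sensors inactive. Its levels were 554, 275 and 632 CPM in Mlkl-/- HFD livers, 657, 835 and 850 in Mlkl-/- ND livers, 294, 431 and 467 in wild-type HFD livers and 490, 494 and 608 in wild-type ND livers. On each diet the Mlkl-/- group had the higher mean, and on ND the groups did not overlap. The log2 fold change of HFD over ND was -0.68 ± 0.26 in Mlkl-/- livers (adjusted p = 0.269) and -0.42 ± 0.26 in wild-type livers (adjusted p = 0.402). Averaged over genotypes it was -0.55 ± 0.18, with an adjusted p of 0.0893. DESeq2 called that average (-0.54, adjusted p = 0.0404), as did edgeR with the pooled code level as a term (-0.57, adjusted p = 0.0272), while the adjusted p over 20 alternatives ran from 0.0272 to 0.334. Mlkl-/- over wild-type stood at 0.29 ± 0.26 on HFD and 0.56 ± 0.26 on ND (adjusted p = 0.608 and 0.903).

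Hsp90b1, on chromosome 10, encodes GRP94, the Hsp90 chaperone of the ER. It had 749, 564 and 1030 CPM in Mlkl-/- HFD livers, 888, 995 and 1140 in Mlkl-/- ND livers, 492, 597 and 844 in wild-type HFD livers and 656, 611 and 950 in wild-type ND livers. The groups overlapped in all 4 comparisons. The log2 fold change lay between -0.37 ± 0.25 (HFD over ND in Mlkl-/- livers) and 0.45 ± 0.25 (Mlkl-/- over wild-type on ND), with adjusted p of 0.534 and 0.931.

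Dnajb9, on chromosome 12, encodes ERdj4, a J-domain cochaperone of BiP that takes part in ER-associated degradation and represses IRE1. It had 38.6, 26.9 and 32.8 CPM in Mlkl-/- HFD livers, against 50.3, 83.2 and 81.4 CPM in Mlkl-/- ND livers. In wild-type livers it had 29.8, 38.3 and 27.1 CPM on HFD, against 41.9, 42.9 and 38.9 CPM on ND. The 6 HFD livers all lay below the 6 ND livers, which was true of 1.12% of all genes, and the highest level by group was that of Mlkl-/- ND livers. In Mlkl-/- livers the log2 fold change of HFD over ND was -1.13 ± 0.20 (95% interval -1.55 to -0.71, adjusted p = 0.0276). In wild-type livers it was -0.37 ± 0.19 (-0.79 to 0.04, adjusted p = 0.297).

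The diet effects of Dnajb9 in the genotypes differed by -0.75 ± 0.28 (Mlkl-/- minus wild-type), with an unadjusted p of 0.0153 and an adjusted p of 0.417, so a difference between them was not called. Averaged over genotypes Dnajb9 fell to 0.594 of its ND level, with a log2 fold change of -0.75 ± 0.14 (95% interval -1.05 to -0.46, adjusted p = 0.00595). On ND it stood 0.80 ± 0.19 higher in Mlkl-/- than in wild-type livers without overlap (unadjusted p = 0.00095, adjusted p = 0.428). On HFD the genotype difference was 0.04 ± 0.20 (adjusted p = 0.935).

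The call in Mlkl-/- livers depended on single libraries and on the 8-locus level. It ended without Mlkl-/- ND replicate 2 or 3 and without any 1 of the Mlkl-/- HFD replicates, with log2 fold changes of -0.98 to -1.26 and adjusted p of 0.0606 to 0.113. Fitted together with the 8-locus level it was -0.91 (adjusted p = 0.195), and over all 20 alternatives it ranged from -1.30 to -0.91, called in 14 (adjusted p 8.17e-05 to 0.195). The averaged diet call was held in 19 of 20 alternatives and was lost when the 8-locus level was fitted too (-0.54, adjusted p = 0.207). Between HFD livers of code 29 and ND livers of code 27 the difference in mean log2 CPM was -1.32 in Mlkl-/- and -0.27 in wild-type livers. Between HFD livers of code 25 and ND livers of code 23 it was -0.64 in Mlkl-/- and -0.50 in wild-type livers. Diet and code change together in these values, so no diet comparison within a code could be made. It was -0.63 in Mlkl-/- livers of the higher 8-locus level and -0.46 in wild-type livers of the lower level. All 3 Mlkl-/- HFD livers had the higher 8-locus level and all 3 wild-type ND livers the lower, so no other diet comparison within that division could be made. In the Mlkl-/- diet comparison all 14 markers of sinusoidal endothelial cells were below 0 as well, with a summed level of 194 to 240 CPM in Mlkl-/- HFD livers, against 242 to 378 CPM in Mlkl-/- ND livers (median -0.59, none called). Their part in the Dnajb9 result was not tested.

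Sdf2l1, on chromosome 16, encodes an ER protein that works with BiP and its J-domain partners. Its levels were 40.9, 36.6 and 54.8 CPM in Mlkl-/- HFD livers, 36.7, 33.1 and 38.6 in Mlkl-/- ND livers, 15.7, 21.6 and 43.1 in wild-type HFD livers and 20.4, 17.6 and 31.1 in wild-type ND livers. Mlkl-/- livers were higher than wild-type livers on ND without overlap, and on HFD wild-type replicate 3 lay within the Mlkl-/- range. The log2 fold change was 0.72 ± 0.33 on HFD (adjusted p = 0.318), 0.65 ± 0.33 on ND (adjusted p = 0.925) and 0.68 ± 0.23 as the average (adjusted p = 0.337). Without wild-type HFD replicate 3 it was called, at 1.24 on HFD (adjusted p = 0.037) and 0.94 as the average (adjusted p = 0.0422). Those were the lowest adjusted p of any alternative, and the highest were 0.641 on HFD and 0.622 as the average. Between diets it stood at 0.29 ± 0.32 in Mlkl-/- and 0.21 ± 0.33 in wild-type livers.

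Pdia6, on chromosome 12, encodes a protein disulfide isomerase, which forms and rearranges the disulfide bonds of folding proteins. It had 314, 312 and 374 CPM in Mlkl-/- HFD livers, 307, 323 and 312 in Mlkl-/- ND livers, 200, 215 and 297 in wild-type HFD livers and 242, 198 and 300 in wild-type ND livers. All 6 Mlkl-/- livers lay above all 6 wild-type livers, which was so for 0.0774% of tested genes. The log2 fold change of Mlkl-/- over wild-type was 0.49 ± 0.18 on HFD, 0.35 ± 0.18 on ND and 0.42 ± 0.13 as the average. The average had an unadjusted p of 0.00473 and an adjusted p of 0.263, so it was not called. Between diets Pdia6 differed by 0.09 ± 0.18 in Mlkl-/- and by -0.06 ± 0.18 in wild-type livers.

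Pdia4, on chromosome 6, encodes another disulfide isomerase of the ER, ERp72. Its levels were 170, 120 and 281 CPM in Mlkl-/- HFD livers, 184, 216 and 208 in Mlkl-/- ND livers, 111, 146 and 187 in wild-type HFD livers and 139, 123 and 213 in wild-type ND livers. The groups overlapped in every comparison. The genotype difference was 0.36 ± 0.29 on HFD and 0.36 ± 0.29 on ND, with adjusted p of 0.572 and 0.969, and the diet difference was -0.09 ± 0.29 in each genotype.

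Creld2, on chromosome 15, encodes a stress-induced ER protein with EGF-like repeats. It had 32.8, 18.6 and 49.3 CPM in Mlkl-/- HFD livers, 45.1, 28.7 and 40 in Mlkl-/- ND livers, 8.25, 15.4 and 28.6 in wild-type HFD livers and 20.8, 20 and 37.3 in wild-type ND livers. Its spread within groups was wide and the groups overlapped in all 4 comparisons. The genotype difference was 0.95 ± 0.48 on HFD (adjusted p = 0.365) and 0.54 ± 0.47 on ND (adjusted p = 0.973).

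Manf, on chromosome 9, encodes a neurotrophic factor that stays in the ER with BiP and is secreted under stress. Its levels were 50, 23.3 and 54.6 CPM in Mlkl-/- HFD livers, 62.4, 78.6 and 82.8 in Mlkl-/- ND livers, 28.2, 45.6 and 41.2 in wild-type HFD livers and 44.2, 40 and 46.4 in wild-type ND livers. The 3 Mlkl-/- ND livers stood above the 9 others. The log2 fold change of HFD over ND was -0.81 ± 0.26 in Mlkl-/- livers (unadjusted p = 0.00924, adjusted p = 0.206) and -0.18 ± 0.26 in wild-type livers (adjusted p = 0.758). The test of the difference between them gave -0.62 ± 0.37 (adjusted p = 0.584). On ND Mlkl-/- livers were 0.78 ± 0.26 above wild-type livers (unadjusted p = 0.0114, adjusted p = 0.718).

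Herpud1, on chromosome 8, encodes a membrane protein of the HRD1 complex, which sends misfolded proteins out of the ER for degradation. It had 265, 575 and 178 CPM in Mlkl-/- HFD livers, 469, 531 and 278 in Mlkl-/- ND livers, 260, 173 and 249 in wild-type HFD livers and 432, 548 and 314 in wild-type ND livers. The wild-type groups did not overlap between diets, and the Mlkl-/- groups did. HFD over ND was -0.93 ± 0.40 in wild-type livers (unadjusted p = 0.0435, adjusted p = 0.228) and -0.33 ± 0.40 in Mlkl-/- livers (adjusted p = 0.761). In Mlkl-/- HFD replicate 2 Herpud1 was the highest of its group, while each of the other 9 genes was the lowest of its group there. Without that library the averaged diet difference of Herpud1 was called at -0.91 (adjusted p = 0.0182), against -0.63 ± 0.28 and an adjusted p of 0.229 with all libraries (0.0182 to 0.57 over the alternatives).

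**Figure D2:**
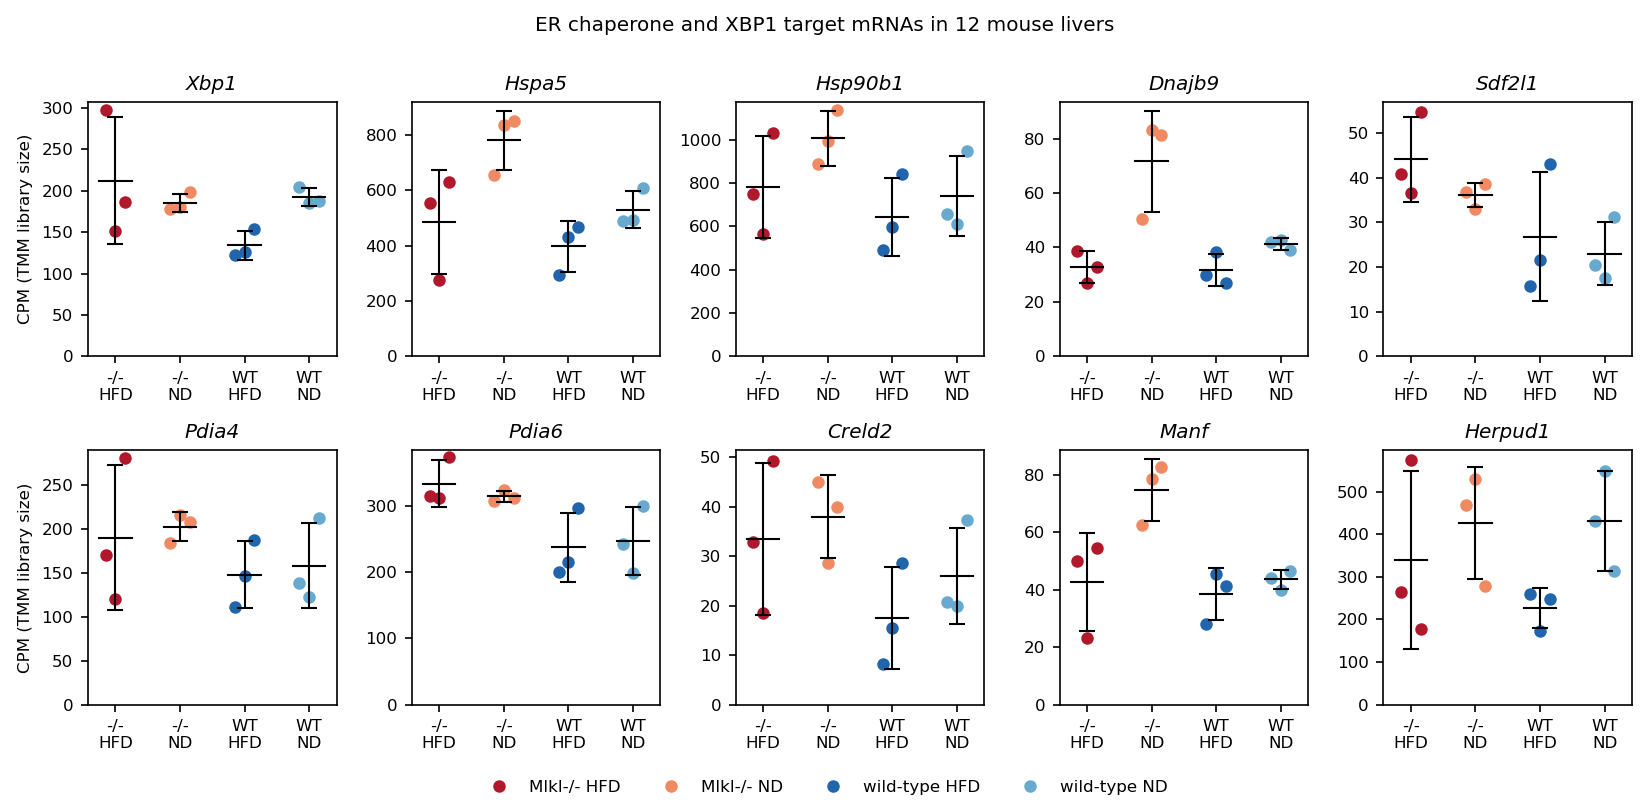
Level of each of the 10 genes (y axis, CPM with TMM scaling) in the 12 livers, 1 panel a gene, with groups from left to right Mlkl-/- HFD, Mlkl-/- ND, wild-type HFD and wild-type ND; points are livers and bars the mean ± SD of 3. Dnajb9 is lower in all 6 HFD livers, and Pdia6 is higher in all 6 Mlkl-/- livers.

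Taken as a mean over the 10 genes, the log2 deviation from each gene's own mean over the 12 livers was 0.15, -0.29 and 0.27 in Mlkl-/- HFD livers and 0.31, 0.44 and 0.44 in Mlkl-/- ND livers. It was -0.72, -0.40 and -0.05 in wild-type HFD livers and -0.11, -0.19 and 0.15 in wild-type ND livers. The 3 Mlkl-/- ND livers lay above the other 9, the 2 lowest values were wild-type HFD livers, and the other 3 groups overlapped. In every group the livers of the higher code (29 or 27) had a higher mean than those of the lower code (25 or 23). After each gene's group mean was taken out, it was 0.23 in the Mlkl-/- HFD liver of code 29, against 0.10 and -0.33 in those of code 25, and -0.01 and 0.34 in wild-type HFD livers of code 29, against -0.33 in that of code 25. It was 0.04 and 0.05 in Mlkl-/- ND livers of code 27, against -0.09 in that of code 23, and 0.20 in the wild-type ND liver of code 27, against -0.06 and -0.14 in those of code 23.

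Within groups, most of the genes varied in the same direction from animal to animal. After each gene's group means were taken out of its log2 CPM, 33 of the 45 pairs of genes correlated positively over the 12 livers, with a median Pearson's r of 0.50. The family of 45 relations was tested by exact two-sided permutation within groups. By Pearson's r 13 pairs had an adjusted p under 0.05, and by Spearman's rho 12 did. Pairs of other genes were not counted in the same way. Whether these genes vary together more than other genes of the same libraries was therefore not tested. Hspa5 and Manf were the closest pair (r = 0.97, exact permutation p = 0.00463, adjusted p = 0.0231; rho = 0.94, adjusted p = 0.0376). Without the 2 livers farthest from the median on the x axis their r was 0.91. Hsp90b1 and Pdia4 followed (r = 0.96, exact permutation p = 0.00154, adjusted p = 0.0231; rho = 0.97, adjusted p = 0.0289), with r = 0.95 without 2 livers. Sdf2l1 correlated with Pdia6 (r = 0.93, exact permutation p = 0.00694, adjusted p = 0.0284; rho = 0.88, adjusted p = 0.0376). It also correlated with Creld2 (r = 0.92, exact permutation p = 0.00231, adjusted p = 0.0231; rho = 0.92, adjusted p = 0.0289). Without 2 livers these r were 0.85 and 0.89. With the pooled code level also taken out, a setting added after seeing the data, 31 of the 45 pairs were positive with a median r of 0.45. The 4 pairs named here then had r of 0.96, 0.87, 0.88 and 0.87, given as a description with no test.

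Herpud1 ran the other way. It correlated negatively with each of the other 9 genes (r from -0.83 to -0.37), and its relation with Manf was past the threshold (r = -0.83, exact permutation p = 0.00463, adjusted p = 0.0231; rho = -0.82, adjusted p = 0.0298), with r = -0.58 without 2 livers. With the pooled code level also taken out, 8 of its 9 relations were negative (r from -0.71 to 0.10). Xbp1 and Dnajb9 were in none of the 13 pairs, with median r of 0.36 and 0.13 to the other genes. The count of pairs past the threshold was 0 without any 1 of the Mlkl-/- HFD or wild-type ND replicates or without wild-type HFD replicate 1, and 7 without wild-type HFD replicate 2. With 1 library left out only 432 permutations exist, and the smallest p reached was 0.00231 or, in 6 of the 7 sets in which no pair passed, 0.00463. All 12 sets had the same 432 permutations, so 0.00463 was a value reached in those 6 sets and not a limit of the test. Among the 12 sets the count ran from 0 to 16, so it depended on which library was left out. Without wild-type HFD replicate 1 the smallest p was 0.00231, as in the sets with 7 to 16 pairs, and the count was 0. Positive pairs numbered 30 to 35 in the 12 sets, and the median r was 0.26 without Mlkl-/- HFD replicate 2 and 0.44 to 0.69 in the others.

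**Figure D3:**
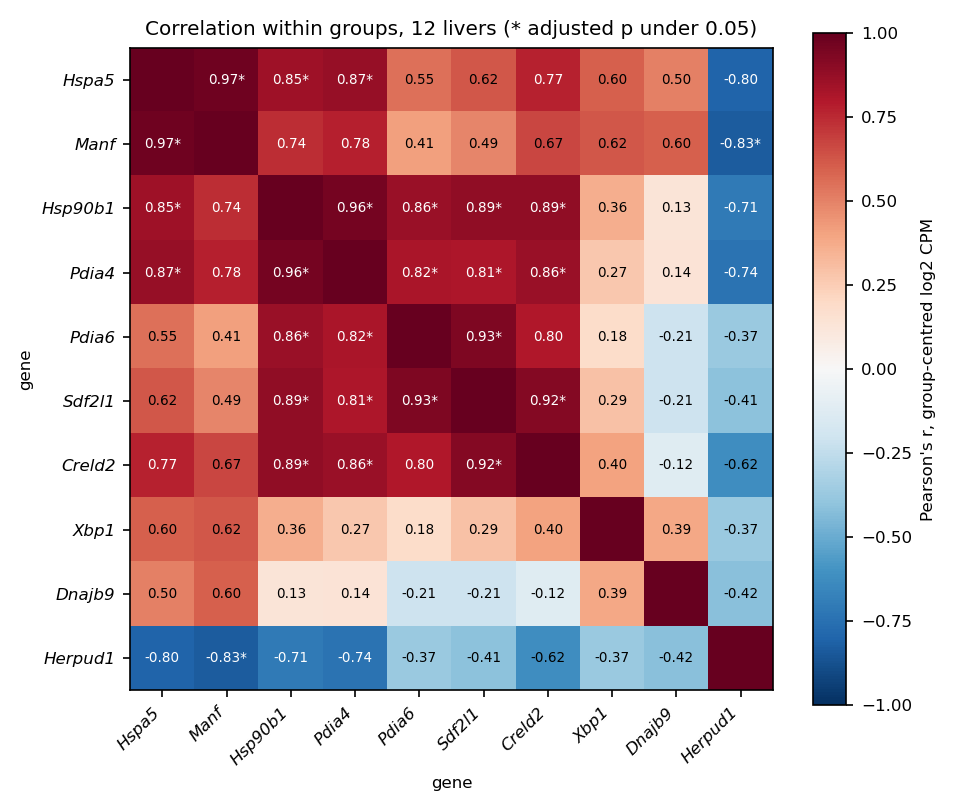
Pearson's r between each pair of the 10 genes over the 12 livers after the group means were taken out of log2 CPM; colour gives r from negative to positive. The Herpud1 row is negative throughout (-0.83 to -0.37), and the highest value is 0.97 for Hspa5 with Manf.

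Over the same group-centred values, the genes outside the 10 whose pattern was most like their mean were ranked among 9345 genes with a mean of at least 5 CPM. The 10 nearest were Llgl1, Pank3, Vkorc1l1, Hyou1, Dnajc3, Zfp862-ps, Ero1lb, Syvn1, Naa50 and Chmp3, with Pearson's r of 0.91 to 0.93 over 12 livers. Hyou1 (r = 0.93) is an ER chaperone of the Hsp70 family, Dnajc3 (r = 0.92) a BiP cochaperone, Ero1lb (r = 0.92) an oxidase that recharges disulfide isomerases, and Syvn1 (r = 0.91) the HRD1 ubiquitin ligase. The likeness is a description, since depth and RNA input are shared by all genes of a library.

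Other genes of the secretory pathway were read as lists. Of 33 further ER folding genes, none was called between Mlkl-/- HFD and Mlkl-/- ND livers, 21 were below 0 and the median was -0.15. In wild-type livers 1 fell on HFD, the disulfide isomerase Pdia5 (-0.81 ± 0.18, adjusted p = 0.0256), and the median was -0.05. Pdia5 also fell in the average over genotypes (-0.69 ± 0.13, adjusted p = 0.00649), together with the thioredoxin-like Txndc11 (-0.58 ± 0.13, adjusted p = 0.0195). Between genotypes none of the 33 was called, with 6 below 0 on HFD (median 0.22) and 8 on ND (0.20). Calreticulin, Calr, a lectin chaperone, stood at 0.36 ± 0.17 on HFD and 0.37 ± 0.17 on ND in Mlkl-/- over wild-type livers, uncalled.

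The 23 genes of the translocon, which passes new proteins into the ER, were nearly all lower on HFD than on ND in Mlkl-/- livers (21 below 0, median -0.28), and none was called. In wild-type livers 2 fell, the channel subunit Sec61g (-0.63, adjusted p = 0.0316) and the signal peptidase subunit Spcs2 (-0.62, adjusted p = 0.0422). On ND 22 of the 23 stood above 0 in Mlkl-/- over wild-type livers (median 0.32, none called), among them the translocon-associated Ssr3 at 0.53 ± 0.23 (adjusted p = 0.845). Of 28 genes of traffic between ER and Golgi, the cargo receptor Tmed9 fell on HFD in Mlkl-/- livers (-0.87, adjusted p = 0.0458), and 24 were below 0 (median -0.20). In wild-type livers 9 of the 28 were below 0 (median 0.05). The 20 N-glycosylation genes had medians of -0.21 on HFD over ND in Mlkl-/- livers and -0.09 in wild-type livers, where Pgm3, which makes a precursor of UDP-GlcNAc, rose (0.76, adjusted p = 0.0197). Over the average of genotypes the glycan enzymes Alg8 (-0.63, adjusted p = 0.0411) and Ganab (-0.35, adjusted p = 0.0392) fell.

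The 25 genes of ER-associated degradation had medians of 0 between diets in each genotype. Vimp, the VCP-interacting selenoprotein, fell in the average over genotypes (-0.54 ± 0.10, adjusted p = 0.00607). Of the 13 sensor and regulator genes tested, Tmbim6, which encodes the IRE1 inhibitor BI-1, rose in that average (0.39 ± 0.11, adjusted p = 0.0411), and none was called within a genotype. In the PERK and ATF4 list of 26 genes, Vldlr, a lipoprotein receptor, rose on HFD in Mlkl-/- livers (3.38 ± 0.48, adjusted p = 0.00654) and in wild-type livers (2.09 ± 0.41, adjusted p = 0.0148). The asparagine synthetase gene Asns (-4.54), Cth (-1.07) and Atf4 itself (-0.51) fell on HFD in wild-type livers (adjusted p = 0.0363, 0.0231 and 0.0452). Asns (-3.76), Cth (-0.91) and Atf4 (-0.40) also fell in the average over genotypes (adjusted p = 0.0121, 0.00587 and 0.0215). In Mlkl-/- livers their mean levels were lower on HFD too, uncalled. The 24 cytosolic heat shock genes had none called in any comparison, with a median of 0.32 for HFD over ND in Mlkl-/- livers and -0.03 in wild-type livers. The 11 mitochondrial chaperones also had none called.

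Genes of lipid metabolism linked to XBP1 went higher on HFD where they were called. Of 10 tested, Acacb, an acetyl-CoA carboxylase, rose in wild-type livers (2.34, adjusted p = 0.0129), and Acacb (2.04), the desaturase Scd1 (1.06) and Pdk2 (0.69) rose in the average over genotypes (adjusted p = 0.0024, 0.00684 and 0.0161). By genotype the medians of these lipid genes lay on the other side of 0 from those of the 10 genes described here. In Mlkl-/- over wild-type livers 6 were below 0 on HFD (median -0.43), against 48.3% of all genes. On ND 8 were below 0 (median -0.29), against 50% of all genes, and none was called on either diet. Of 10 mRNAs reported as cut by IRE1, Ces1e fell in wild-type livers on HFD (-0.79, adjusted p = 0.0215), while 4 of the 10 were below 0 there and the median was 0.05. In Mlkl-/- over wild-type livers on HFD 8 of these 10 were below 0 (median -0.61, none called). Among 30 secreted proteins of hepatocytes, the clients of the ER, 13 fell on HFD in wild-type livers and 29 were below 0 (median -0.57), for example Serpina1c (-1.35, adjusted p = 0.00879) and fibrinogen beta, Fgb (-1.21, adjusted p = 0.0195). In Mlkl-/- livers none of the 30 was called, 22 were below 0 and the median was -0.35. In Mlkl-/- over wild-type livers on HFD 29 of the 30 were above 0 (median 0.43, none called), and all 10 genes described here were also above 0 in that comparison. Between genotypes on ND 10 of the 30 were below 0 (median 0.16), against 2 of the 10 genes described here (median 0.49). A link between these lists was not tested.

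**Figure D4:**
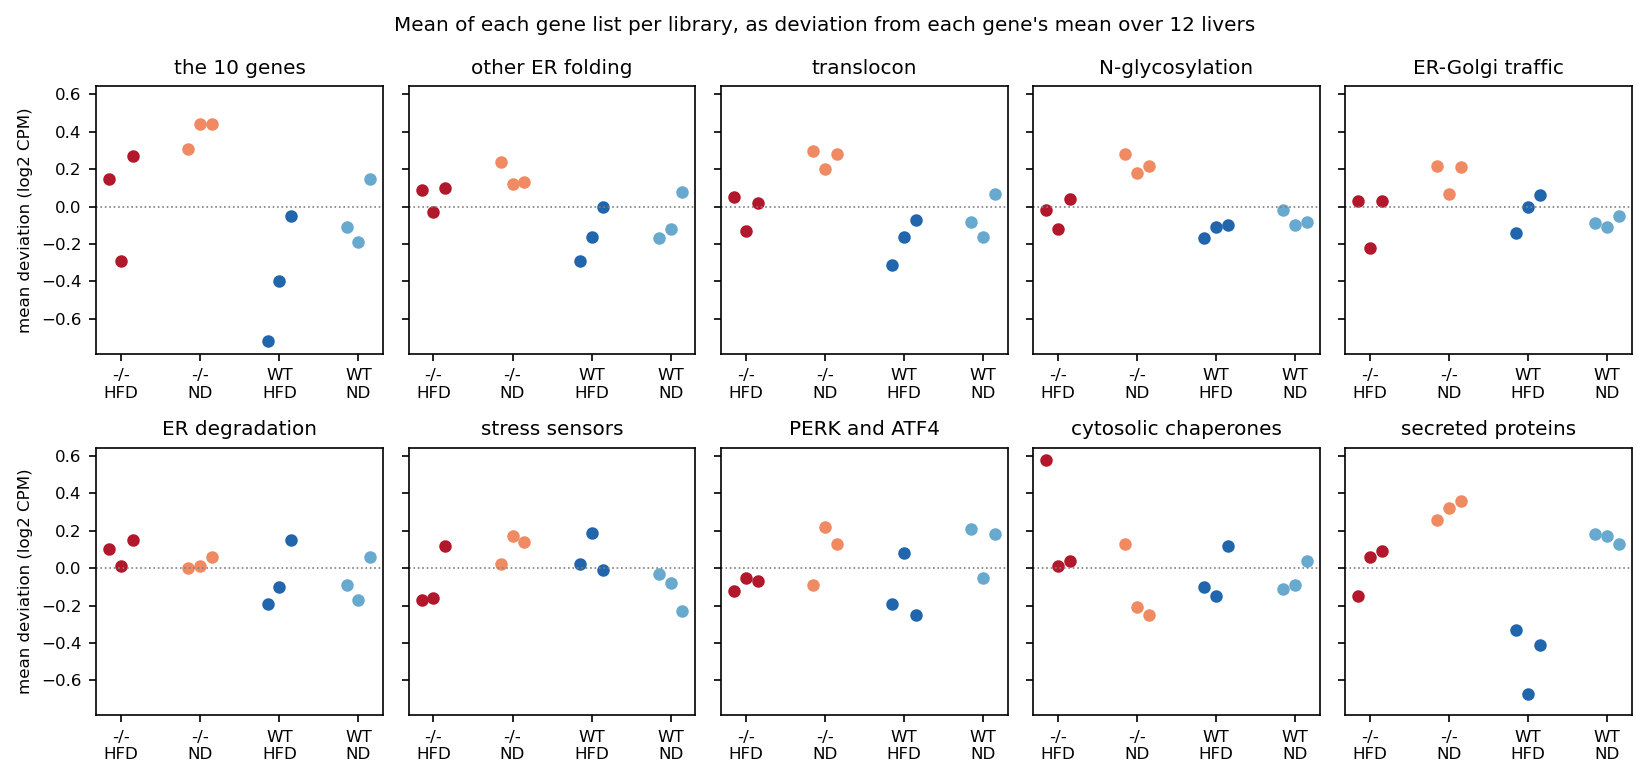
Mean of each gene list per liver (y axis, log2 CPM as deviation from each gene's mean over 12 livers) for the 10 genes and 9 other lists; points are livers, with groups from left to right Mlkl-/- HFD, Mlkl-/- ND, wild-type HFD and wild-type ND. The 10 genes spread from -0.72 to 0.44, with the Mlkl-/- ND livers above all others. The same holds for the other ER folding, translocon, N-glycosylation, ER-Golgi traffic and secreted protein lists.

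Markers of other cells were read in the same libraries. The 14 markers of liver sinusoidal endothelial cells were all lower in Mlkl-/- HFD than in wild-type HFD livers (summed level 194 to 240 CPM in Mlkl-/- HFD livers, against 359 to 551 CPM in wild-type HFD livers, median -0.99). Of these Flt4 (-1.62), Fcgr2b (-1.21) and Dnase1l3 (-1.17) were called. All 15 Kupffer cell markers stood below 0 in that comparison (283 to 483 CPM in Mlkl-/- HFD livers, against 514 to 697 CPM in wild-type HFD livers, median -0.86, none called). Of 14 markers of recruited macrophages, 6 rose in wild-type livers on HFD (64.2 to 237 CPM, against 78.3 to 90.4 CPM on ND), Gpnmb by 4.14 and Mmp12 by 3.66 on the log2 scale. Both started from low mean levels in wild-type ND livers, 0.252 CPM for Gpnmb and 0.627 CPM for Mmp12. The 64.2 CPM was that of wild-type HFD replicate 3. The list's mean log2 deviation was -0.02 there, against 1.26 and 1.63 in replicates 1 and 2. Hepatocyte markers summed to 94000 to 125000 CPM in Mlkl-/- HFD livers, against 71600 to 97300 CPM in wild-type HFD livers. In wild-type livers on HFD 4 of the 12 fell (Hamp, Serpina1a, Fgb and Ahsg), and 0 of 12 in Mlkl-/- livers. Serpina1a, Fgb and Ahsg are also in the list of secreted proteins above, so the falls of the 2 lists are not separate observations. No gene of these 4 lists was at 0 in all libraries of a group.

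Plasma cells, which also express Xbp1 and ER chaperones highly, were followed by 15 B and plasma cell markers. These summed to 170 to 387 CPM in Mlkl-/- HFD livers, 237 to 286 in Mlkl-/- ND livers, 166 to 202 in wild-type HFD livers and 216 to 499 in wild-type ND livers, and none was at 0 in all libraries of a group. Sdc1, which hepatocytes also express, made up a large part of these sums, with mean levels of 164 CPM in Mlkl-/- HFD livers, 229 in Mlkl-/- ND livers, 142 in wild-type HFD livers and 225 in wild-type ND livers. Of the 14 tested, Sdc1 alone was called within a genotype, and it fell on HFD in wild-type livers (-0.66, adjusted p = 0.0247). The median of the 14 for HFD over ND was 0.81 in Mlkl-/- livers (1 below 0) and -0.76 in wild-type livers (13 below 0). Their mean log2 deviation was -0.66, 1.36 and 0.75 in Mlkl-/- HFD livers, -0.46, -0.55 and -0.01 in Mlkl-/- ND livers, -0.37, -0.25 and -0.36 in wild-type HFD livers and 1.68, -0.70 and -0.44 in wild-type ND livers. The 3 high values stood on Mlkl-/- HFD replicates 2 and 3 and wild-type ND replicate 1. Pancreatic acinar markers summed to 7.68 to 16.5 CPM over all livers. Of the T and NK cell, neutrophil and acinar lists 8 of 14, 5 of 12 and 2 of 13 genes were tested and none was called. The lists for stellate cells and bile duct cells had 1 gene each that rose on HFD in wild-type livers, Lum (1.2) and Anxa5 (1.73). In the 16 genes of the fed state none was called within a genotype, and Pdk4 rose on HFD in the average (1.87, adjusted p = 0.0231). None of 20 circadian clock genes was called in any comparison. The part of cell makeup, feeding state and time of day in the values of the 10 genes was not tested.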

How the data were processed

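The authors deposited 1 table of raw read counts per Ensembl gene for 12 livers. Per the labels' protocols, RNA was taken with Trizol and RNeasy columns and QuantSeq 3' mRNA-seq libraries were run on an Illumina NextSeq. The submitters' processing notes name cutadapt 1.9, HISAT2, featureCounts, limma and mm10, with no further settings.

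Counts were tested with edgeR 4.0.16 (quasi-likelihood, robust, TMM scaling; R 4.3.3) in 1 fit of 4 groups. Genes passed filterByExpr (minimum count 10, total 15): 18098 of 51912, while 21194 identifiers held 0 counts in all libraries. CPM values carry TMM factors (0.922 to 1.16). Log2 CPM for correlations used a prior count of 2, with 1296 within-group permutations. Alternatives were RLE or no scaling factors, other filters, DESeq2 1.42.0, limma-voom 3.58.1, the pooled title code level (25 with 23, 29 with 27; pooled here) or the 8-locus level as a term, and leaving out each library. Correlations with the pooled code level also removed were added after seeing the data. The fit was tested on simulated data. Names and positions follow GENCODE for mm10.

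The 10 genes and the other lists were chosen with earlier results of these data known. Named genes were the 10, Mlkl, up to 4 called genes a list and comparison by size of change, up to 2 of the highest mean CPM in ER lists with none called, and the 10 nearest in pattern. The edgeR p-values set a difference against the spread between animals within groups, estimated over the 4 groups with help from the other genes. Animals of a group also differ in title code. The p-values of the correlations come from permutation within groups.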

Additional observations from a re-analysis of the deposited data

How the results depend on the processing

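Within the 10 genes the number called was 1 between Mlkl-/- HFD and Mlkl-/- ND livers, 0 when the 8-locus level was fitted too and 0 to 1 with 1 library left out. For HFD over ND averaged over genotypes it was 1, and 2 with DESeq2, 2 with the pooled title code level as a term, 0 when the 8-locus level was fitted and 1 to 2 with 1 library left out. For Mlkl-/- over wild-type it was 0 on HFD and 0 in the average, and 0 to 1 with 1 library left out. Pairs of genes past the threshold numbered 13, 17 with library size only and 0 to 16 with 1 library left out. The cause of these moves was not tested. Leaving out a library leaves fewer permutations, so those counts of pairs cannot be set directly against 13. The sets with 1 library left out all had 432 permutations, and the count among them still ran from 0 to 16. It was 0 without any 1 of the Mlkl-/- HFD or wild-type ND replicates or without wild-type HFD replicate 1. In the other sets it was 7 to 16.

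Of 70 fold changes, 25 took the other sign in at least 1 of 20 alternatives (61 of 1400 values, none called). With library size only these were Pdia4 in Mlkl-/- livers by diet (0.01), Pdia4 (0.10), Pdia6 (0.13) and Manf (0.01) in wild-type livers by diet, Dnajb9 by genotype on HFD (-0.12), Pdia4 (-0.09) and Sdf2l1 (-0.02) in the difference of diet effects and Pdia4 in the diet average (0.05). With the title code they were Pdia4 in Mlkl-/- livers by diet (0.04), Herpud1 by genotype on ND (0.22), and Hspa5 (0.05) and Hsp90b1 (0.13) in the difference of diet effects. With the 8-locus level they were Pdia6 (-0.02) and Sdf2l1 (-0.08) in Mlkl-/- livers by diet, Sdf2l1 in wild-type livers by diet (-0.19), and Pdia6 (-0.09) and Sdf2l1 (-0.14) in the diet average. The difference of diet effects for Pdia4 was 0.00 with RLE, -0.02 with the 5 CPM filter, 0.00 with DESeq2 and -0.10 with limma-voom.

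With 1 library left out the ranges that crossed 0 were, in Mlkl-/- livers by diet, Xbp1 -0.13 to 0.41, Pdia4 -0.48 to 0.17, Pdia6 0.00 to 0.15 and Creld2 -0.56 to 0.13. In wild-type livers by diet they were Hsp90b1 -0.44 to 0.04, Pdia4 -0.30 to 0.19, Pdia6 -0.25 to 0.12 and Sdf2l1 -0.31 to 0.50. By genotype they were Herpud1 -0.22 to 0.21 on ND, and on HFD Dnajb9 -0.09 to 0.20, Pdia4 -0.03 to 0.60, Herpud1 -0.04 to 0.89 and Manf -0.06 to 0.44. In the difference of diet effects they were Hspa5 -0.49 to 0.02, Hsp90b1 -0.42 to 0.07, Pdia4 -0.39 to 0.24, Pdia6 -0.01 to 0.34, Sdf2l1 -0.20 to 0.59 and Herpud1 -0.02 to 0.91. In the averages they were Pdia4 -0.29 to 0.06, Pdia6 -0.08 to 0.11 and Sdf2l1 -0.01 to 0.40 by diet, and Herpud1 -0.03 to 0.43 by genotype.

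Counts over all genes moved further. By diet in Mlkl-/- livers 65 became 514 with DESeq2, 171 without a filter beyond 1 count, 27 with the 8-locus level, 100 with library size only and 13 to 729 with 1 library left out. In wild-type livers 766 became 158 with the 8-locus level, 1465 with DESeq2 and 63 to 1233, and in the diet average 1302 became 122, 1980 with library size only and 616 to 2029. By genotype 5 on HFD became 398 with DESeq2, 124 without a filter, 36 with library size only and 0 to 189 with 1 library left out, 1 on ND became 49, 10 and 0 to 6 with DESeq2, no filter and 1 library left out, and 3 in the average became 207, 74, 13 with the title code and 1 to 33. In the difference of diet effects 0 became 58 with DESeq2 and 0 to 4 with 1 library left out. Settings not named here gave 0 to 8 genes in these 4 tests. Scaling by library size alone changed the split of higher against lower calls, to 81 and 19 in Mlkl-/- livers by diet (38 and 27 with TMM), 921 and 181 in wild-type livers (366 and 400) and 1629 and 351 in the average (646 and 656). It also moved the median of all genes to 0.19 in wild-type livers by diet, 0.13 in the diet average and -0.16 by genotype on HFD. No paired analysis was possible because replicate numbers were given in accession order and pair no animals.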

Other observations

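Outside the 10 genes, 25 other tested genes hold an ERSE or ERSE-II in the RefSeq promoter window. Averaged over genotypes 2 of them rose on HFD, Acacb (2.04, adjusted p = 0.0024) and Nucb1, a calcium-binding Golgi protein (0.37, adjusted p = 0.0231), and none fell, against 7.19% of all tested genes called in either direction. They were named after their values were seen. The median of the 25 was -0.11 with 14 below 0. Acacb was also the 1 gene of the 25 called between diets in wild-type livers (2.34, adjusted p = 0.0129), and 0 were called in Mlkl-/- livers by diet or between genotypes on either diet.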
